A study of Homo sapiens with 10 samples.

Results

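NRF2, its inhibitor KEAP1 and 7 genes that NRF2 is known to switch on under oxidative stress were followed through RNA sequencing of U2OS cells, a human osteosarcoma line. The 9 genes are NFE2L2 (which encodes NRF2), KEAP1, HMOX1, NQO1, OSGIN1, TXNRD1, GCLC, GCLM and SRXN1. They were taken by gene symbol from a table of 60671 genes, in which each had 1 row, and 8 of them passed the minimum mean of 10 normalized counts needed for testing, as did 12971 genes in all. SRXN1 fell under it.

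All cells were grown in low glucose medium with serum before the experiment. Of the 10 libraries, 9 came from cells given 50 min of arsenite, a poison that reacts with thiol groups and induces oxidative stress. In the EBSS+VBL+Gln+Ars group, cells spent 18 h in EBSS, a salt solution without amino acids or added serum, with the microtubule poison vinblastine (VBL) and added glutamine before arsenite. The EBSS+VBL+Ars group had the same without glutamine, and the Ars group received arsenite alone (3 libraries each). A single untreated library had none of these. EBSS, the loss of serum and vinblastine always came together and were always followed by arsenite, so their parts cannot be told apart. The labels do not say whether the 3 libraries of a group were separate cultures, and the p-values therefore reflect library-to-library spread alone, which may be technical.

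NRF2 is a transcription factor that is normally made and destroyed continuously. KEAP1 holds it for the CUL3 ubiquitin ligase, and oxidants or arsenite modify cysteines of KEAP1, after which NRF2 accumulates without any need for more NFE2L2 mRNA. In the nucleus NRF2 pairs with a small MAF protein on antioxidant response elements, a site that the repressor BACH1 also occupies, and turns on genes for glutathione synthesis, thioredoxin recycling, quinone reduction and haem breakdown.

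The core of that element, TGACNNNGC, was searched on both strands of the RefSeq promoter windows (GRCh38.p14). Each had 250 bases before an annotated start and 50 after it, and a gene can have more than 1 such start. Of the 9 genes, 8 matched the table, with 11 windows, and HMOX1 did not. The core was found in 4 of the 11 windows, belonging to KEAP1 (its second window only), TXNRD1 (both windows) and GCLM, and in 13.3% of all 35116 windows. The starts used for KEAP1 (10502771), OSGIN1 (83953240), the second TXNRD1 window (104287032) and GCLM (93909430) lie inside the gene positions given below. OSGIN1 had no such core but held a match to TGAGTCAGC, a MAF and AP-1 type sequence that 0.461% of windows hold and that was chosen after the OSGIN1 window had been read. The 120 bases before the start are shown for these windows, since KEAP1, TXNRD1 and OSGIN1 carry calls described below and GCLM shares a run with KEAP1, read 5′ to 3′ on the gene's strand with complete matches on either strand in capitals. They lie at chr19:10502772-10502891 on the minus strand for KEAP1, chr16:83953120-83953239 on the plus strand for OSGIN1, chr12:104215659-104215778 and chr12:104286912-104287031 on the plus strand for TXNRD1, and chr1:93909431-93909550 on the minus strand for GCLM.
KEAP1: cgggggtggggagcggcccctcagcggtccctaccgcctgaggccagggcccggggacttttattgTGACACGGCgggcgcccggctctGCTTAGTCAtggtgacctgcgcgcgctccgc
OSGIN1: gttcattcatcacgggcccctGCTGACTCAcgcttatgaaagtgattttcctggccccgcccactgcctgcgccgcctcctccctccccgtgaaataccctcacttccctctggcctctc
TXNRD1, first window: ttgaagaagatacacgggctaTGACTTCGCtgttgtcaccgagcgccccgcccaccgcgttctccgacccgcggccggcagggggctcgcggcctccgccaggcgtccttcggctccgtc
TXNRD1, second window: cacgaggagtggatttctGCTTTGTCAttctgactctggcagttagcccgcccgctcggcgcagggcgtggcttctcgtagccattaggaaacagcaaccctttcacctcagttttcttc
GCLM: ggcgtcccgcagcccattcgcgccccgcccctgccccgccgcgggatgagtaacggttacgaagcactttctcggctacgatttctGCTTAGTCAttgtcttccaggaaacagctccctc
KEAP1 and GCLM shared the run TCTGCTTAGTCAT, 13 bases that span the core. In both it ended close to the start that the window was set by. The core was at -31 to -23 in KEAP1 and -34 to -26 in GCLM, counting the base before that start as -1. A match is a description of the letters and not of binding.

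Values below are the deposited normalized counts, which correct for sequencing depth and not for gene length. Counted reads per library were 4452208 to 6323628 in EBSS+VBL+Gln+Ars, 3538017 to 4993421 in EBSS+VBL+Ars, 5914439 to 7019842 in Ars and 5302037 in the untreated library, of which the signal recognition particle RNA RN7SL1 took 7.88% to 20.2%. Of 9 mesenchymal and osteoblast markers 6 had a mean of at least 10, with SP7, BGLAP and COL1A2 under it. None of 4 epithelial and none of 4 blood markers reached that mean, and the 3 endothelial markers summed to 8.56 to 40.0 normalized counts. A gene was called when limma's adjusted p (Benjamini-Hochberg over 12971 genes) was under 0.05 and the fitted change at least 1.5-fold. Levels are relative to the rest of each library's RNA, so a change in RNA per cell could not be seen.

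HMOX1 was high in every arsenite library, with group means 7.61 to 9.38 times the untreated value, and was not called between the arsenite groups. NQO1 was 6.06-fold lower and NFE2L2 2.07-fold higher in EBSS+VBL+Ars than in the Ars libraries, and OSGIN1 was 2.71-fold lower with glutamine than without it. Of the 8 tested members, 4 were called in EBSS+VBL+Ars against Ars, with NFE2L2, OSGIN1 and TXNRD1 higher and NQO1 lower, where 42.8% of 12971 genes were called (21.5% higher and 21.3% lower). The groups did not overlap for 6 of the 8, as for 60.0% of genes. With glutamine against EBSS+VBL+Ars, 1 of 8 was called, where 17.0% of genes were (8.45% higher and 8.52% lower), and 3 of 8 did not overlap, as for 39.2%. In EBSS+VBL+Gln+Ars against Ars 4 of 8 were called, NFE2L2 and TXNRD1 higher and NQO1 and KEAP1 lower, where 31.8% of genes were (16.5% higher and 15.3% lower), and 6 of 8 did not overlap, as for 57.2%. The members' median log2 fold changes in these comparisons, taken in that order, were 0.26, -0.08 and -0.31, beside 0.02, 0.00 and 0.02 for all genes. The first and the last of these comparisons share the Ars libraries, and with 8 genes nothing particular to them is read from these shares. The split of calls over all genes depends on the scaling. With libraries set to equal totals it was 2076 higher and 3617 lower in EBSS+VBL+Ars against Ars, in place of 2791 and 2757. For glutamine against EBSS+VBL+Ars it was 2836 higher and 330 lower (2402 and 434 without RN7SL1), in place of 1096 and 1105. For EBSS+VBL+Gln+Ars against Ars it was 2630 higher and 1593 lower, in place of 2139 and 1985.

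**Figure D1:**
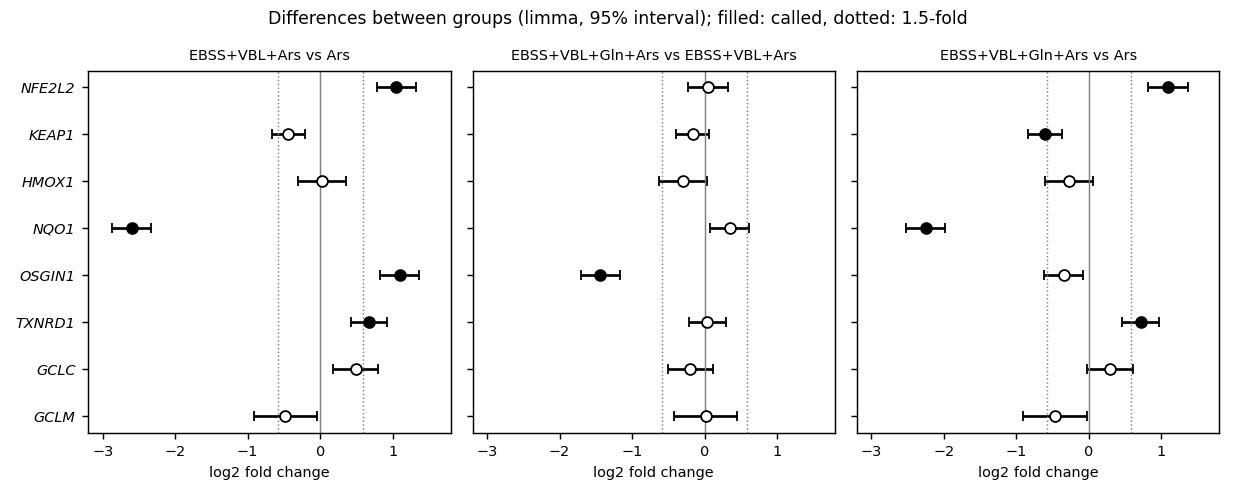
Log2 fold change (horizontal axis) with its 95% interval from limma for the 8 tested genes in EBSS+VBL+Ars against Ars, EBSS+VBL+Gln+Ars against EBSS+VBL+Ars, and lastly EBSS+VBL+Gln+Ars against Ars. Filled points are called and dotted lines mark 1.5-fold. NQO1 lay at -2.60 and -2.25 in the comparisons with Ars, and OSGIN1 at -1.44 was the one filled point between the glutamine groups.

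**Figure D2:**
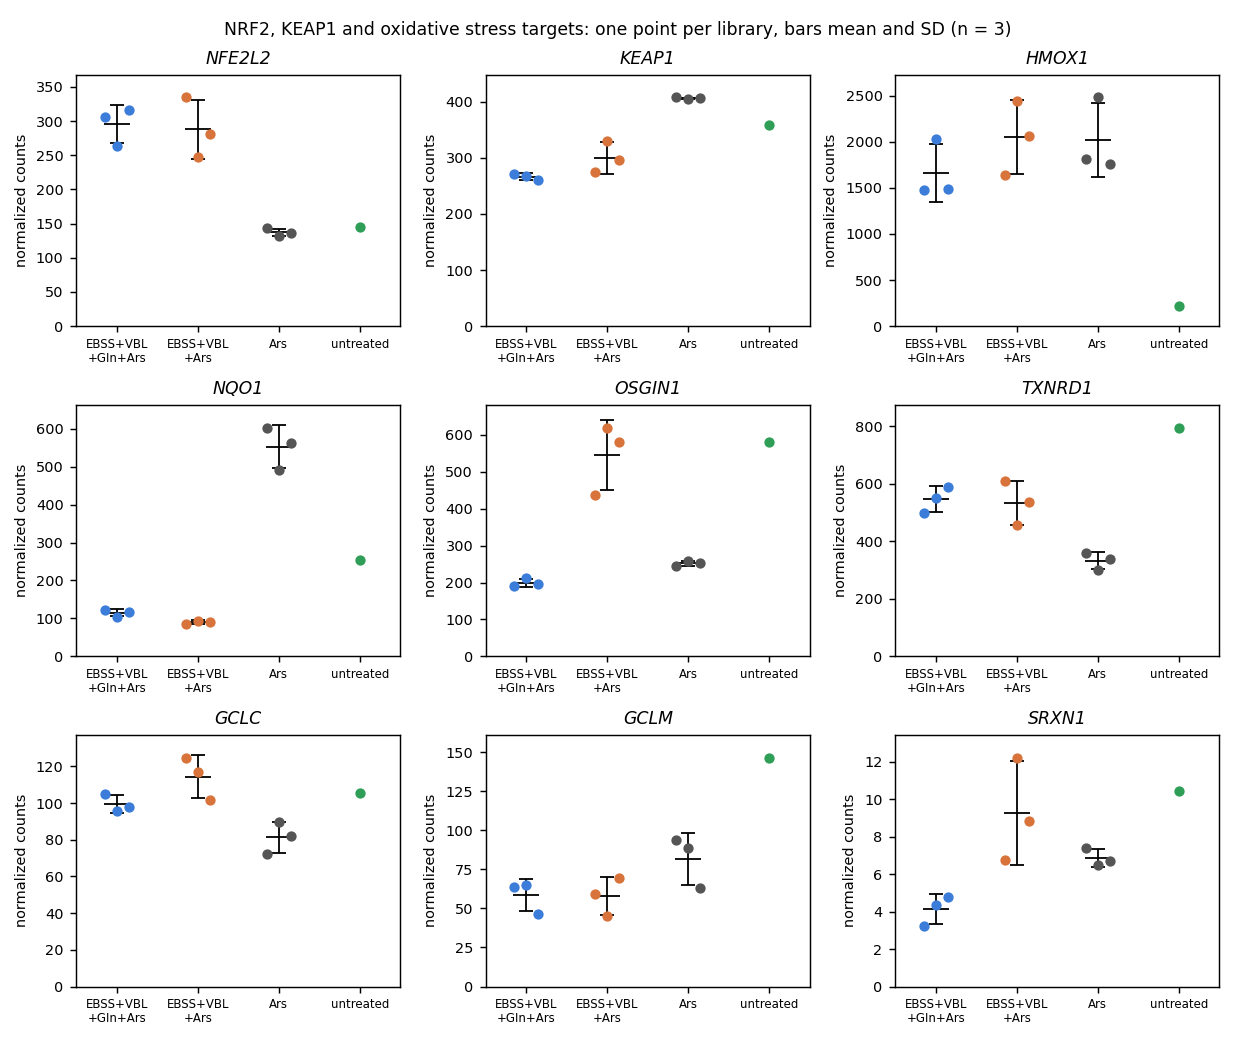
Normalized counts (vertical axis, from 0) of the 9 genes in EBSS+VBL+Gln+Ars, EBSS+VBL+Ars, Ars and untreated libraries, 1 point per library, with the mean and SD of 3 libraries as bars. HMOX1 was near 219 only in the untreated library, NQO1 was at 492 to 603 only in Ars, and OSGIN1 was at 438 to 620 in EBSS+VBL+Ars and the untreated library.

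Against Ars, NFE2L2 rose in both starved groups and KEAP1 fell in the group with glutamine. NFE2L2 (hg38, as for all gene positions here, chr2:177218667-177392756, minus strand) had 306, 263 and 316 normalized counts in EBSS+VBL+Gln+Ars, 335, 248 and 281 in EBSS+VBL+Ars, 143, 132 and 137 in Ars, and 145 in the untreated library. Every starved library, with or without glutamine, lay above every Ars library, and the Ars libraries lay just under the untreated one. The log2 fold change was 1.05 ± 0.13 (SE; 2.07-fold; adjusted p = 1.54e-06) for EBSS+VBL+Ars against Ars and 1.09 ± 0.13 (2.14-fold; adjusted p = 1.56e-06) for EBSS+VBL+Gln+Ars against Ars. No difference with glutamine was detected against EBSS+VBL+Ars, at 0.04 with a 95% interval of -0.23 to 0.32. The annotated exons of NFE2L2 share 3509 bases with HNRNPA3 on the opposite strand, and whether reads were counted by strand is not given in the sources used here. HNRNPA3 itself was lower in EBSS+VBL+Ars, at 123 to 185 normalized counts against 214 to 293 in Ars (log2 fold change -0.81, adjusted p = 0.000206). In EBSS+VBL+Gln+Ars it was at 232 to 265 normalized counts, -0.08 against Ars (adjusted p = 0.718) and 0.73 against EBSS+VBL+Ars (adjusted p = 0.00189) on the log2 scale, where NFE2L2 was at 0.04.

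KEAP1 (chr19:10486125-10503558, minus strand) had 272, 268 and 260.4 normalized counts in EBSS+VBL+Gln+Ars, 274, 330.0 and 296 in EBSS+VBL+Ars, 408, 405 and 406 in Ars, and 359 in the untreated library. The order was Ars, then untreated, then EBSS+VBL+Ars, then EBSS+VBL+Gln+Ars, with no overlap between the groups. Against Ars, KEAP1 fell 1.52-fold in EBSS+VBL+Gln+Ars (log2 fold change -0.61 ± 0.11, adjusted p = 0.00017), which is just past the 1.5-fold minimum. For EBSS+VBL+Ars the log2 fold change was -0.44 ± 0.11 (adjusted p = 0.00216), short of that minimum. The glutamine difference of -0.17 (95% interval -0.40 to 0.06, adjusted p = 0.269) did not pass the test. Both calls turn on the scaling: with libraries set to equal totals the values were -0.50 for EBSS+VBL+Gln+Ars and -0.62 for EBSS+VBL+Ars against Ars, so that the second was called in place of the first.

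Genes of several partners and regulators of NRF2, MAFF above all, were also higher in the starved groups than in Ars. MAFF, 1 of the 3 small MAF genes, had 945, 1036 and 991 normalized counts in EBSS+VBL+Gln+Ars, 1433, 1484 and 1508 in EBSS+VBL+Ars, 144, 172 and 163 in Ars, and 275 untreated. Its log2 fold change was 3.20 ± 0.10 (adjusted p = 2.08e-14) for EBSS+VBL+Ars against Ars and 2.63 ± 0.10 (adjusted p = 6.57e-13) for EBSS+VBL+Gln+Ars against Ars. MAFK changed by 1.82 and 1.18 and MAFG by 1.16 and 0.72 in these comparisons, on the log2 scale. The untreated library lay well above Ars for all 3 genes, however. MAFK averaged 1088 normalized counts in EBSS+VBL+Gln+Ars, 1697 in EBSS+VBL+Ars and 483 in Ars, and was at 1430.3 untreated. MAFG averaged 362, 493 and 219.9 in these groups and was at 352 untreated. MAFK was called lower with glutamine than without it (log2 fold change -0.64, adjusted p = 0.000563), while MAFF at -0.57 and MAFG at -0.44 stayed under 1.5-fold, though none of the 3 genes overlapped between the glutamine and no-glutamine libraries.

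BACH1, the repressor that competes for the same site, was at 335, 337 and 395 normalized counts in EBSS+VBL+Gln+Ars, 412, 323 and 305 in EBSS+VBL+Ars, 171, 134 and 165 in Ars, and 256 untreated. It was thus higher in both starved groups than in Ars, by 1.18 with glutamine (adjusted p = 1.1e-06) and 1.14 without it (adjusted p = 1.09e-06) on the log2 scale. SQSTM1, whose product p62 binds KEAP1 and delivers it to autophagy, had 4019, 4349 and 4067 normalized counts in EBSS+VBL+Gln+Ars, 6079.9, 6324 and 6733 in EBSS+VBL+Ars, 1842, 2153 and 1878 in Ars, and 1068 untreated. It rose by 1.71 in EBSS+VBL+Ars against Ars and was called lower with glutamine than without it (-0.62, adjusted p = 0.000318). CUL3, the ligase scaffold, had log2 fold changes of -0.54 (adjusted p = 0.00467) in EBSS+VBL+Ars against Ars and 0.36 (adjusted p = 0.0744) with glutamine against EBSS+VBL+Ars, neither of them called.

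Of the 22 partners and regulators tested, 9 were called higher and 3 lower in EBSS+VBL+Ars against Ars. Of all genes 42.8% were called there, 21.5% higher and 21.3% lower. DPP3, which also binds KEAP1, had the largest fall of those named (-1.34). In EBSS+VBL+Gln+Ars against EBSS+VBL+Ars 2 were called, SQSTM1 and MAFK, both lower, where 17.0% of all genes were called. Both were just past the 1.5-fold minimum. Equal totals moved the median of all genes by 0.28 on the log2 scale there, and the values of SQSTM1 and MAFK at that scaling are not given here. For EBSS+VBL+Gln+Ars against Ars it was 6 higher and 2 lower, where 31.8% of all genes were called (16.5% higher and 15.3% lower).

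**Figure D3:**
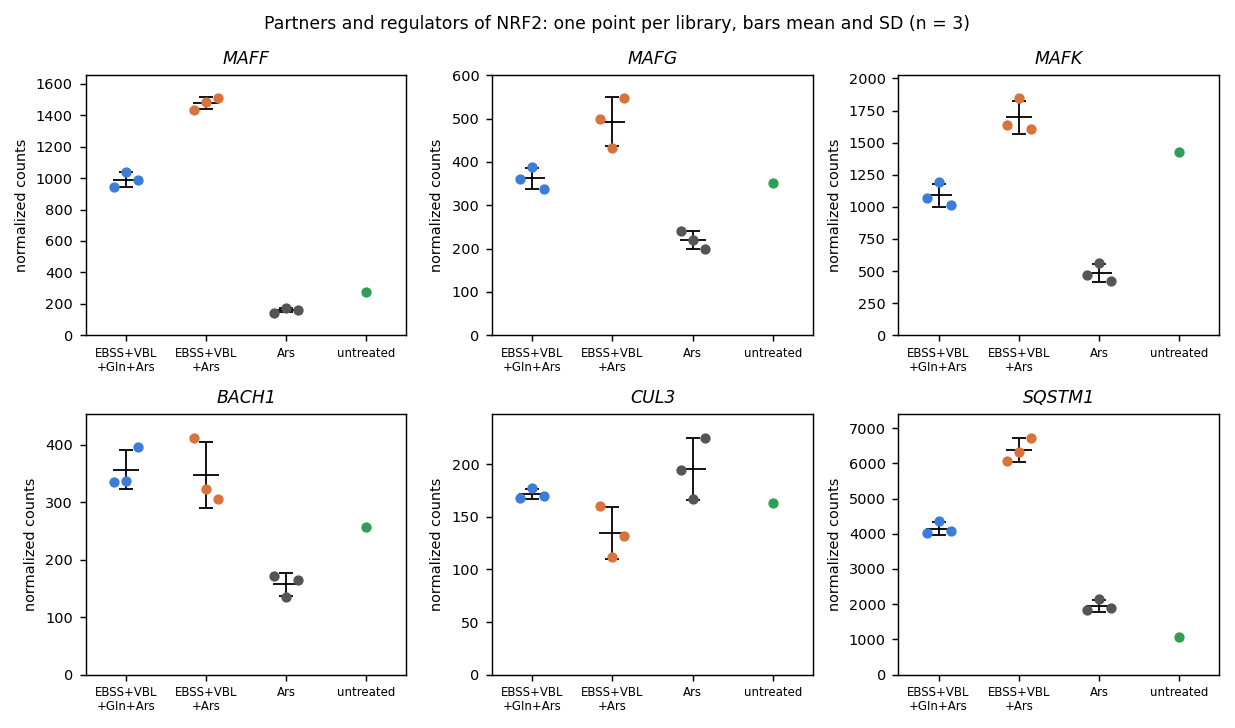
Normalized counts (vertical axis, from 0) of MAFF, MAFG, MAFK, BACH1, CUL3 and SQSTM1 in EBSS+VBL+Gln+Ars, EBSS+VBL+Ars, Ars and untreated libraries, 1 point per library with mean and SD of 3 libraries. The small MAF genes and SQSTM1 were highest in EBSS+VBL+Ars, between Ars and EBSS+VBL+Ars with glutamine, and BACH1 was about as high with glutamine as without it.

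Among the targets, HMOX1 stood apart by its rise over the untreated library. HMOX1 (chr22:35380361-35394214, plus strand), the enzyme that opens haem to biliverdin, iron and carbon monoxide, had 1480.5, 2029 and 1486 normalized counts in EBSS+VBL+Gln+Ars, 1642, 2448 and 2065 in EBSS+VBL+Ars, 1819, 2482 and 1754 in Ars, and 219 in the untreated library. All 9 arsenite libraries were far above the untreated one, and the 3 arsenite groups overlapped. The library numbered 2 was the highest in each group. The Ars mean was 9.23 times the untreated value (95% interval 8.11 to 10.5 from the Poisson error of the 230 untreated reads), rank 11 of the 6132 genes with a mean of at least 100 over these 4 libraries. On the log2 scale HMOX1 differed between arsenite groups by 0.02 for EBSS+VBL+Ars against Ars (95% interval -0.31 to 0.35), -0.30 for glutamine against no glutamine (-0.63 to 0.03) and -0.28 for EBSS+VBL+Gln+Ars against Ars (-0.60 to 0.05), none past the test. The first of these changed sign with the scaling, to -0.16 with equal totals. The second also turned on the scaling, at -0.012 with equal totals and 0.016 with quantile normalization. The third lay between -0.43 and -0.12 over the alternatives. Per kilobase of its canonical transcript HMOX1 was the highest of the 9 genes in every arsenite group, with mean levels of 1072 in EBSS+VBL+Gln+Ars, 1320.3 in EBSS+VBL+Ars and 1299 in Ars, and in the untreated library, at 141, it stood behind OSGIN1 at 302 and TXNRD1 at 206 normalized counts per kilobase.

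NQO1 (chr16:69706996-69726668, minus strand), a quinone reductase that avoids radical products, gave the largest change of the 8 tested genes between arsenite groups. It had 123, 105 and 117 normalized counts in EBSS+VBL+Gln+Ars, 85.4, 94.3 and 90.6 in EBSS+VBL+Ars, 603, 492 and 563 in Ars, and 253 in the untreated library. Ars libraries were all above the untreated one and all starved libraries below it. The log2 fold change was -2.60 ± 0.13 (6.06-fold lower; adjusted p = 6.46e-12) in EBSS+VBL+Ars and -2.25 ± 0.13 (4.77-fold lower; adjusted p = 7.95e-11) in EBSS+VBL+Gln+Ars, both against Ars. With glutamine NQO1 differed from EBSS+VBL+Ars by 0.35 (95% interval 0.08 to 0.62, adjusted p = 0.0495), with no overlap between the groups but under 1.5-fold. With equal totals that difference was 0.63 and was called, and over the alternatives its adjusted p lay between 0.00485 and 0.186.

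OSGIN1 (chr16:83931311-83966332, plus strand), an oxidative stress induced inhibitor of growth, was the one member called between the glutamine groups. It had 189, 211 and 195 normalized counts in EBSS+VBL+Gln+Ars, 438, 619.9 and 580.0 in EBSS+VBL+Ars, 244, 258 and 254 in Ars, and 580.1 in the untreated library. The EBSS+VBL+Ars libraries lay around the untreated level and far above both other groups, and the glutamine libraries were the lowest of all. Against EBSS+VBL+Ars, OSGIN1 fell 2.71-fold with glutamine (log2 fold change -1.44 ± 0.13, adjusted p = 1.16e-06). Against Ars it was 2.14-fold higher in EBSS+VBL+Ars (1.10 ± 0.13, adjusted p = 7.16e-07), and -0.34 in EBSS+VBL+Gln+Ars against Ars (adjusted p = 0.0356) was under 1.5-fold. The OSGIN1 transcript was the most GC-rich of the 9, at 64.7% GC. Across 12960 genes the glutamine log2 fold change had a Pearson correlation of -0.39 with transcript GC content, as a description only since genes are not independent. With that trend removed OSGIN1 still fell with glutamine, by -1.14 (adjusted p = 2.98e-07). Its exons share 457 bases with MLYCD on the same strand, which was at 11.4 to 41.4 normalized counts in all libraries.

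TXNRD1 (chr12:104215779-104350307, plus strand), the cytosolic selenoenzyme that recharges thioredoxin with NADPH, had 500.0, 549.7 and 591 normalized counts in EBSS+VBL+Gln+Ars, 609, 457 and 537 in EBSS+VBL+Ars, 358, 302 and 339.6 in Ars, and 796 in the untreated library. Every arsenite library lay under the untreated value and the Ars libraries were the lowest. The log2 fold change was 0.67 ± 0.12 (1.59-fold; adjusted p = 0.000112) in EBSS+VBL+Ars and 0.71 ± 0.12 (1.64-fold; adjusted p = 9.34e-05) in EBSS+VBL+Gln+Ars against Ars. Between the glutamine groups the difference was 0.04 (95% interval -0.22 to 0.29). The first call is near the 1.5-fold minimum: it was lost at 0.49 with equal totals, at 0.50 with quantile normalization and at 0.57 without EBSS+VBL+Ars replicate 1.

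GCLC and GCLM encode the catalytic and modifier subunits of glutamate-cysteine ligase, the first step of glutathione synthesis, and differed from Ars with opposite signs, neither of them called. GCLC (chr6:53497341-53616970, minus strand) had 105, 95.8 and 98.0 normalized counts in EBSS+VBL+Gln+Ars, 125, 117 and 102 in EBSS+VBL+Ars, 72.2, 89.4 and 82.2 in Ars, and 106 untreated. GCLM (chr1:93885199-93909456, minus strand) had 63.9, 65.3 and 46.6 in EBSS+VBL+Gln+Ars, 59.5, 45.4 and 69.6 in EBSS+VBL+Ars, 93.8, 88.5 and 62.9 in Ars, and 146 untreated. The GCLC libraries of both starved groups lay above all Ars libraries, whereas the GCLM groups overlapped. For EBSS+VBL+Ars against Ars, the log2 fold change was 0.49 ± 0.15 for GCLC (adjusted p = 0.00944, under 1.5-fold) and -0.48 ± 0.21 for GCLM (adjusted p = 0.0547). With glutamine they were at 0.29 (adjusted p = 0.119) and -0.47 (adjusted p = 0.0741) against Ars, and at -0.19 (95% interval -0.51 to 0.12) and 0.02 (-0.42 to 0.45) against EBSS+VBL+Ars. GCLC in EBSS+VBL+Ars against Ars did not hold under every alternative. By limma it was 0.31 (adjusted p = 0.136) with equal totals and 0.41 (adjusted p = 0.0549) without Ars replicate 1. GCLM in EBSS+VBL+Ars against Ars turned on single libraries, reaching -0.66 without Ars replicate 3 and -0.62 without EBSS+VBL+Ars replicate 3, both called. Without Ars replicate 3 it was called at -0.64 in EBSS+VBL+Gln+Ars as well. GCLM rested on 26 to 154 reads per library.

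SRXN1 (chr20:646615-653200, minus strand), which reduces overoxidised peroxiredoxins, had 3.25, 4.35 and 4.80 normalized counts in EBSS+VBL+Gln+Ars, 6.74, 12.2 and 8.84 in EBSS+VBL+Ars, 7.43, 6.52 and 6.71 in Ars, and 10.5 untreated, from 3 to 11 reads per library. This was under the minimum for testing, and no difference is read from it. Of its 2528 exon bases 2292 are shared, on the same strand, with the gene ENSG00000270299, which was at 0 in all 10 libraries. Whether reads in the shared bases were left uncounted was not tested, so the values may understate SRXN1.

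The 1 untreated library allows ratios with a counting interval and no test between conditions. Of the 6 members with a mean of at least 100 over the Ars and untreated libraries, 4 differed at least 1.5-fold in Ars against the untreated library, HMOX1 and NQO1 higher and OSGIN1 and TXNRD1 lower, where 34.0% of 6132 genes did (15.6% higher and 18.4% lower). NQO1 was at 2.19 times the untreated value (95% interval 1.94 to 2.47), OSGIN1 at 0.435 times (0.402 to 0.471) and TXNRD1 at 0.419 times (0.391 to 0.449). KEAP1 at 1.13 and NFE2L2 at 0.950 times stood near the median ratio of all genes, 0.986. Below that mean, GCLM was at 0.558, GCLC at 0.770 and SRXN1 at 0.658 times the untreated value.

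HMOX1 was high in the starved groups as well, and other members took different levels there than in Ars. For EBSS+VBL+Gln+Ars the ratios to the untreated library were 7.61 for HMOX1, 2.04 for NFE2L2, 0.455 for NQO1, 0.400 for GCLM and 0.342 for OSGIN1. For EBSS+VBL+Ars they were 9.38 for HMOX1, 1.99 for NFE2L2, 0.356 for NQO1, 0.397 for GCLM and 0.941 for OSGIN1. NQO1 was thus above the untreated library in Ars and below it in both starved groups, while GCLM was below it in all 9 arsenite libraries. The summed mesenchymal and osteoblast markers were also highest in Ars, and the sum lay above the untreated library in every group. They stood at 17798 to 19414 normalized counts in EBSS+VBL+Gln+Ars, 15774 to 17361 in EBSS+VBL+Ars and 28264 to 30272 in Ars, against 13618 untreated. Of the 6 markers tested, 1 was called higher and 3 lower in EBSS+VBL+Ars against Ars, beside 21.5% and 21.3% of all genes. Most of the sum came from VIM, COL1A1 and SPARC, with Ars means of 12756, 10613 and 4829, and single markers differed from it. COL6A1 averaged 638 in EBSS+VBL+Gln+Ars, 805 in EBSS+VBL+Ars and 986 in Ars, and was at 860 untreated. Like NQO1, it was above the untreated library in Ars alone. ALPL averaged 293 in EBSS+VBL+Gln+Ars, 232 in EBSS+VBL+Ars and 59.5 in Ars, and was at 121 untreated. The part of these markers was not tested. RN7SL1 took 14.1% to 19.9% of Ars reads against 9.55% of untreated reads, and with libraries set to equal totals without it HMOX1 was at 9.90 and NQO1 at 2.36 times the untreated value. Across 6130 genes the log2 ratio of Ars to untreated had a Pearson correlation of -0.29 with log2 transcript length, given as a description. With that trend removed HMOX1 was at 8.12, NQO1 at 2.06, OSGIN1 at 0.395 and TXNRD1 at 0.441 times the untreated value.

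**Figure D4:**
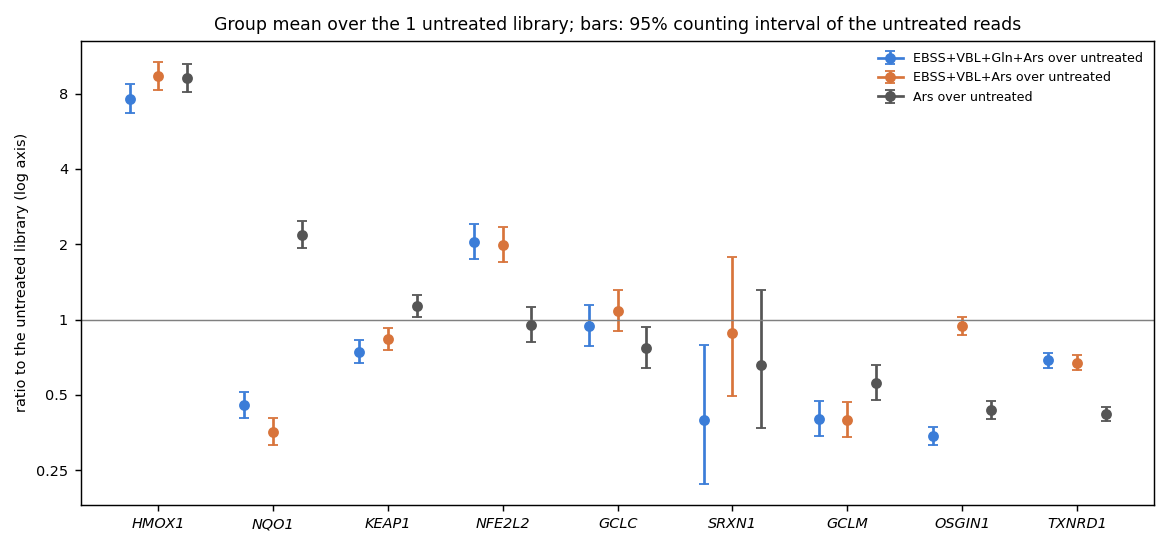
Ratio of each group's mean to the untreated library (vertical log axis) for the 9 genes in EBSS+VBL+Gln+Ars, EBSS+VBL+Ars and Ars, with the 95% Poisson interval of the untreated reads as bars and a line at 1. HMOX1 was at 7.61, 9.38 and 9.23 in the 3 groups, and NQO1 was above the line in Ars alone.

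Of other genes known as NRF2 targets, more were called lower than higher in the starved groups against Ars. Of 25 tested, 3 were called higher and 13 lower in EBSS+VBL+Ars against Ars, with a median of -0.76, where 21.5% of all genes were called higher and 21.3% lower. In EBSS+VBL+Gln+Ars against Ars it was again 3 higher and 13 lower, with a median of -0.68, where 16.5% of all genes were higher and 15.3% lower. EPHX1, the microsomal epoxide hydrolase, had 129, 173 and 139.8 normalized counts in EBSS+VBL+Gln+Ars, 113, 148 and 137 in EBSS+VBL+Ars, 455, 536 and 508 in Ars, and 184 untreated, so that both starved groups lay under and Ars above the untreated library. Its log2 fold change was -1.91 in EBSS+VBL+Ars and -1.76 in EBSS+VBL+Gln+Ars against Ars. SLC7A11, the cystine carrier, went the other way, by 1.22 in EBSS+VBL+Gln+Ars against Ars (adjusted p = 1.06e-06). It averaged 194 normalized counts in EBSS+VBL+Gln+Ars, 169 in EBSS+VBL+Ars and 81.7 in Ars, and was at 223 untreated, above all 3 means. Glutamine against EBSS+VBL+Ars gave 2 called higher and 1 lower, SQSTM1, with a median of 0.03, where 17.0% of all genes were called. In Ars against the untreated library 9 of 21 were at least 1.5-fold higher and 2 lower, with a median ratio of 1.32, where 15.6% of all genes were higher and 18.4% lower with a median of 0.986. This was not particular to these targets. Glutathione use had 7 of 16 higher (median 1.40), and superoxide and peroxide genes 2 of 4 (median 1.59). Of the gene lists only the partners and regulators had a median under that of all genes, at 0.81. The part of transcript length in these ratios was not tested.

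The list of glutathione supply holds genes that provide cysteine and also enzymes that break glutathione down. Of 11 tested, 7 were called higher and 1 lower in EBSS+VBL+Ars against Ars (median 1.23), where 21.5% of all genes were called higher and 21.3% lower. Those higher were CTH, CBS, SLC7A11 and SLC3A2, which bear on cysteine supply, the breakdown enzymes CHAC1 and GGT7, and OPLAH, which recovers glutamate from oxoproline. The synthetase GSS was not called, at -0.24. CTH, which makes cysteine from cystathionine, had 364, 383 and 389 normalized counts in EBSS+VBL+Gln+Ars, 321, 304 and 339 in EBSS+VBL+Ars, 58.1, 35.4 and 40.2 in Ars, and 13.3 untreated. It rose by 2.85 in EBSS+VBL+Ars and 3.09 in EBSS+VBL+Gln+Ars against Ars on the log2 scale. CHAC1, which degrades glutathione, rose by 2.73 and 2.15, and SLC3A2, the heavy chain of several amino acid carriers, by 1.27 in EBSS+VBL+Ars. In EBSS+VBL+Gln+Ars against Ars 7 were called, all of them higher (median 0.73), where 16.5% of all genes were higher. With glutamine against EBSS+VBL+Ars 1 of the 11 was called, GGT7 at -0.62 (median 0.18), where 17.0% of all genes were called. GGT7 was just past the 1.5-fold minimum, and its value with equal totals is not given here.

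Of 22 genes for glutathione use, 2 were called higher and 11 lower in EBSS+VBL+Ars against Ars (median -0.67), where 21.5% of all genes were called higher and 21.3% lower. GSTM4, a glutathione transferase, fell by 1.42 and GPX8, a glutathione peroxidase of the endoplasmic reticulum, by 1.27, while GLRX, glutaredoxin, rose by 2.29. With glutamine against EBSS+VBL+Ars 4 were called, all of them higher (median 0.23), among them GLO1 at 0.85, GPX8 at 0.80 and MGST3 at 0.70, where 17.0% of all genes were called. In EBSS+VBL+Gln+Ars against Ars it was 2 higher and 6 lower (median -0.28), where 31.8% were called, a share close to that of the list. GSR, which reduces glutathione disulfide, fell by 1.03 there.

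The partners of TXNRD1 and NQO1 and the genes around HMOX1 were called about as often as all genes, of which 42.8% were called in EBSS+VBL+Ars against Ars, 17.0% with glutamine against EBSS+VBL+Ars and 31.8% in EBSS+VBL+Gln+Ars against Ars. Against Ars, those called were mostly lower, where calls over all genes were split about evenly at the deposited scaling. In the thioredoxin and peroxiredoxin list 1 of 16 was called higher and 6 lower in EBSS+VBL+Ars (median -0.44), including PRDX1 at -1.16 and MSRB1 at -1.43, a peroxiredoxin and a methionine sulfoxide reductase. Glutamine against EBSS+VBL+Ars gave 2 calls, both higher, PRDX3 at 0.60 among them (median 0.21), and EBSS+VBL+Gln+Ars against Ars gave 1 higher and 3 lower (median -0.26). In the quinone and carbonyl list 5 of 11 were called in EBSS+VBL+Ars, all lower (median -0.57), 2 with glutamine against EBSS+VBL+Ars, both higher (median 0.37), and 5 in EBSS+VBL+Gln+Ars against Ars, all lower (median -0.57). In the haem and iron list of 14, in the same comparisons, 6 were called, all lower (median -0.34), then 2, both higher (median 0.06), and 5, all lower (median -0.29). The ferritin chains FTL and FTH1, which store iron, both fell by 0.76 in EBSS+VBL+Ars, and reads of FTH1, FTL and PRDX1 may be shared with near-identical copies. The lists overlap in genes and were chosen with results of these data known, so their counts are a description.

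**Figure D5:**
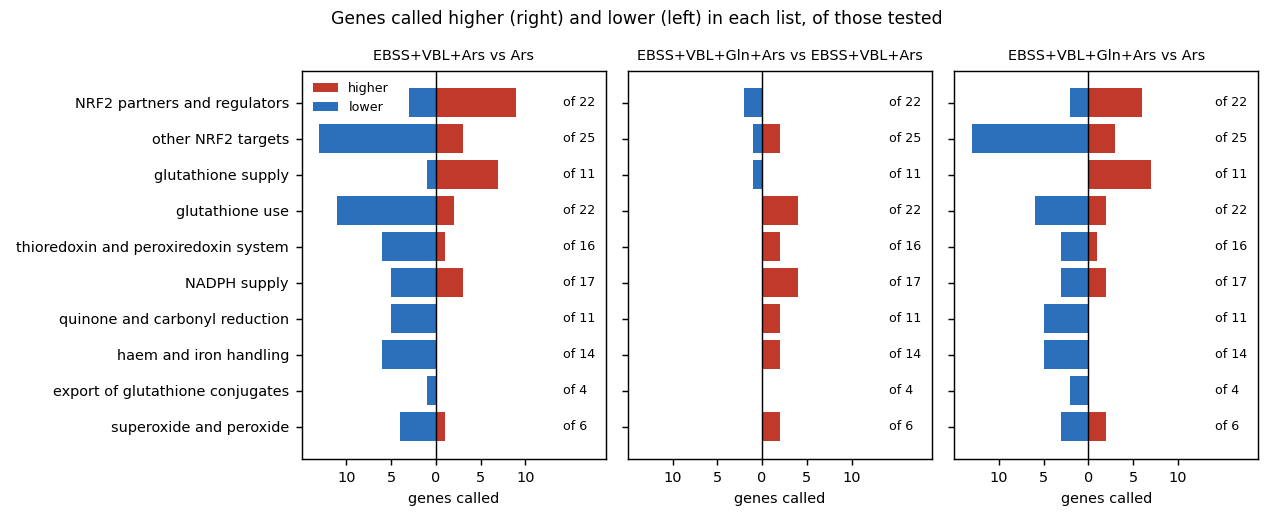
Number of genes called higher (right) and lower (left) in each list (horizontal axis), of those tested, for EBSS+VBL+Ars against Ars, EBSS+VBL+Gln+Ars against EBSS+VBL+Ars, and lastly EBSS+VBL+Gln+Ars against Ars. Glutathione supply leaned right against Ars with 7 higher in both comparisons, and other NRF2 targets leaned left with 13 lower in both.

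The genes most like each member over the 10 libraries were ranked by Pearson correlation of log2 normalized counts among 6246 genes with a mean of at least 100. As the libraries fall into 4 conditions, many genes reach high values, which are descriptions. HMOX1 was most like HSPA1B (0.991), HSPA6 (0.987) and MT1X (0.983), 2 heat shock chaperones and a metallothionein. NFE2L2 was most like MTUS1 (0.992), KEAP1 like SV2A (0.987), NQO1 like EPB41L1 (0.994), OSGIN1 like C7orf26 (0.979) and TXNRD1 like NUFIP2 (0.978). The low-count members had looser matches, GCLC with TBC1D2B (0.931), GCLM with LMNB2 (0.923) and SRXN1 with ITPK1 (0.914).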

How the data were processed

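Ribosome-depleted total RNA of U2OS cells was sequenced in 10 libraries. Per the labels and the study's methods, the authors used STAR for mapping to hg38, HTSeq for counting reads per gene and DESeq2 for normalization. What they deposited is the normalized count, a depth-scaled signal per gene. Each is a whole multiple of the value of 1 read, so that reads were recovered for 100.0% of values within a tolerance of 0.01. Gene positions and lengths are from GENCODE on the same build.

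Groups follow the labels. The main test was limma 3.58.1 (R 4.3.3; linear model over the 9 replicated libraries, empirical Bayes with trend) on log2(normalized count + 1) for the genes whose mean reached 10, a scale that understates changes of low genes. Calls needed an adjusted p (Benjamini-Hochberg) under 0.05 and a fitted difference reaching 1.5-fold, as in the study. The script was tested on simulated data. For the untreated library only ratios were formed, with an exact Poisson 95% interval of its reads, which covers counting error only.

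Alternatives were other pseudocounts, filters and scalings, removal of a GC trend, a replicate block, leaving out each library, edgeR 4.0.16 and DESeq2 1.42.0 on recovered reads. Removal of a transcript length trend was chosen after seeing the data. The 9 members and 10 gene lists were chosen with earlier results of these data known. Every member is described. From each list up to 4 called genes per comparison qualified for naming, those with the largest change, a mean of at least 100 and groups that did not overlap, plus the small MAF genes, BACH1, CUL3 and SQSTM1. Genes most like a member are the top 3 by correlation, of which the first is printed for most members. Sequences are from RefSeq promoter windows. One gene that this rule names is not reported here.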

Additional observations from a re-analysis of the deposited data

How the results depend on the processing

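The members called numbered 4 for EBSS+VBL+Ars against Ars, 1 with glutamine against EBSS+VBL+Ars and 4 for EBSS+VBL+Gln+Ars against Ars, and 4 passed 1.5-fold against the untreated library. These counts stayed within 1.5 times under every alternative run, except that 2 were called with glutamine against EBSS+VBL+Ars with equal totals and again with no minimum fold, OSGIN1 and NQO1. Leaving out 1 library gave 3 to 5 members for EBSS+VBL+Ars against Ars, 1 to 1 with glutamine against EBSS+VBL+Ars, 4 to 5 for EBSS+VBL+Gln+Ars against Ars and 4 to 4 for Ars against untreated. The calls of NFE2L2 and NQO1 against Ars and of OSGIN1 in EBSS+VBL+Ars against Ars and with glutamine held under all alternatives. TXNRD1, KEAP1 and GCLM sit near the 1.5-fold limit: in EBSS+VBL+Ars against Ars, equal totals without RN7SL1 gave TXNRD1 0.50, KEAP1 -0.61 and GCLM -0.65, and in EBSS+VBL+Gln+Ars against Ars removing the GC trend gave KEAP1 -0.46 and GCLM -0.72. Equal totals moved the median of all genes by -0.18, 0.28 and 0.10 in the order of these comparisons.

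Differences that the main fit did not call changed sign, none past the test in the setting that reversed it. Not all were near 0. HMOX1 with glutamine against EBSS+VBL+Ars was at -0.30 in the main fit. With the replicate block its adjusted p by limma was 0.0136, under 1.5-fold. HMOX1 in EBSS+VBL+Ars against Ars became -0.16 with equal totals, -0.15 when these left out RN7SL1, -0.23 with quantile normalization and -0.026 with the GC trend removed, with or without the replicate block, and lay between -0.11 and 0.18 with 1 library left out. With glutamine against EBSS+VBL+Ars, equal totals turned GCLC to 0.089 and KEAP1 to 0.12 (0.031 and 0.061 without RN7SL1), quantile normalization turned GCLM to -0.10 and HMOX1 to 0.016, and removing the GC trend, alone or with the replicate block, turned GCLM to -0.28, KEAP1 to 0.059, NFE2L2 to -0.14 and TXNRD1 to -0.10. GCLM was -0.028 by edgeR and -0.020 by DESeq2. With 1 library left out GCLM lay between -0.15 and 0.17, NFE2L2 between -0.058 and 0.16 and TXNRD1 between -0.068 and 0.14. The cause of these changes was not tested.

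Over all genes, a minimum mean of 50 left 3635 called for EBSS+VBL+Ars against Ars and 2723 for EBSS+VBL+Gln+Ars against Ars, in place of 5548 and 4124, since fewer genes were tested. With no minimum fold 3729 were called with glutamine, in place of 2201. Against the untreated library 2-fold left 732 genes and a minimum mean of 10 gave 5140, in place of 2087. Libraries of the same number are not known to be pairs: 4 of 9 same-number pairs correlated above 0.1 (range -0.06 to 0.31). So did 4 of 18 pairs of different number (range -0.31 to 0.21). The replicate block left the members called at 4, 1 and 4, with 5634, 2385 and 4223 genes in all, and gave HMOX1 an adjusted p of 0.0136 with glutamine against EBSS+VBL+Ars and 0.0149 in EBSS+VBL+Gln+Ars against Ars, both under 1.5-fold. Low counts limit SRXN1, at 3 to 11 reads that may be incomplete, and depth limits GCLM, at 26 to 154.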

Other observations

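Genes that supply NADPH, on which TXNRD1, NQO1 and GSR depend, were called both ways, about as often as all genes against Ars. Of 17 tested, 3 were called higher and 5 lower in EBSS+VBL+Ars against Ars (median -0.23), 4 with glutamine against EBSS+VBL+Ars, all higher (median 0.41), and 2 higher and 3 lower in EBSS+VBL+Gln+Ars against Ars (median 0.08). Of all genes 42.8%, 17.0% and 31.8% were called in these comparisons, in that order. MTHFD2, a mitochondrial folate enzyme, had 2413, 2230.5 and 2405 normalized counts in EBSS+VBL+Gln+Ars, 1956, 1636 and 1661 in EBSS+VBL+Ars, 465 to 581 in Ars and 653 untreated. IDH2, the mitochondrial NADP-dependent isocitrate dehydrogenase, had 141, 142 and 151 in EBSS+VBL+Gln+Ars, 70.8, 68.1 and 56.3 in EBSS+VBL+Ars, 221, 202 and 174 in Ars and 82.7 untreated. Its glutamine difference was 1.15 on the log2 scale (adjusted p = 2.31e-05), so that IDH2 in the glutamine libraries lay between the groups on either side of them without overlap.

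Of 6 superoxide and peroxide genes tested, 1 was called higher, the mitochondrial superoxide dismutase SOD2 (0.75), and 4 lower, among them the cytosolic SOD1 (-0.79), in EBSS+VBL+Ars against Ars (median -0.71). Glutamine against EBSS+VBL+Ars gave 2 calls, both higher (median 0.35), and EBSS+VBL+Gln+Ars against Ars gave 2 higher and 3 lower (median -0.42), beside 42.8%, 17.0% and 31.8% of all genes called in that order. Of 4 exporters of glutathione conjugates 1 was called in EBSS+VBL+Ars against Ars, lower, and 2 in EBSS+VBL+Gln+Ars against Ars, both lower, with ABCC3 at -0.72, beside the same shares of all genes. Between the glutamine groups limma called 0 of the 4 (median -0.12), with 1 at an unadjusted p under 0.05, and edgeR and DESeq2 called 0 each.

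In the same libraries NFE2L2, its partner genes MAFF, MAFG and MAFK and the repressor gene BACH1 were all called higher in both starved groups than in Ars, and TXNRD1 and SLC7A11 were as well. The Ars mean was itself under the untreated library for these genes. It was at 0.58 times for MAFF, 0.63 for MAFG, 0.34 for MAFK, 0.61 for BACH1, 0.42 for TXNRD1, 0.37 for SLC7A11 and 0.95 for NFE2L2. The means of TXNRD1 and SLC7A11 in both starved groups, and of MAFK with glutamine, also stayed under the untreated library. The other means of these genes in the starved groups lay above it. NQO1 and EPHX1 were called lower in both, OSGIN1 was called higher in EBSS+VBL+Ars alone, at -0.34 on the log2 scale with glutamine and 1.10 without it, and HMOX1 was not called in either. The protein level and location of NRF2 were not measured by these libraries.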
